A study of Mus musculus with 8 samples.

Results

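Nrip1 encodes RIP140, a ligand-dependent corepressor of nuclear receptors. The platform annotation gives this symbol to 6 probe sets of 45036 with values on all arrays, and all 6 were examined on 8 arrays: 1434384_at, 1449089_at, 1447211_at, 1418469_at, 1432603_at and 1454295_at. The gene was chosen by the measured difference between its signals on retinoic acid (RA) and untreated arrays, and within the gene every probe set with its symbol was taken. Its RA values are therefore given as a description without a test. RNA came from v-erbA-transfected AML12 cells given 1 µM RA for 24 h or 3 h, the same cells left untreated at 24 h or 3 h, AML12 cells given 1 µM RA for 24 h or 3 h, and AML12 cells left untreated at 24 h or 3 h. AML12 is a hepatocyte line from a mouse carrying a transforming growth factor alpha transgene, so all 8 cultures share that background. The transfected gene, v-erbA, is a viral oncogene whose product is an altered thyroid hormone receptor that can repress receptor target genes. Whether the transfected cells are 1 clone, and what drives v-erbA in them, is not given in the sources used here, so the effect of v-erbA and that of transfection cannot be told apart. Each combination was covered by 1 array, which leaves no replicate of any combination.

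RIP140 binds agonist-occupied nuclear receptors through short leucine-rich motifs and recruits CtBP proteins and histone deacetylases, which repress transcription. Its gene is a known direct target of retinoic acid receptors, so the protein acts in a negative feedback on ligand signalling. In fat, muscle and liver it is known for restraining or tuning genes of lipid and energy metabolism.

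Nrip1 (gene identifier 268903) lies on the minus strand of mouse chromosome 16, at chr16:76287403-76373827 in GRCm38.p6, a span of 86425 bases with 5 RefSeq transcripts, 2 of them curated. The 2 RefSeq promoter windows of the gene are shown because retinoic acid receptors act through short DNA half-sites and 4 of the probe sets shared an RA difference. Capitals mark each half-site found on either strand. The spellings searched were the consensus AGGTCA and 3 variants of it. The first variant was spelled AGTTCA, and all 4 were searched in the same way. Another variant in the search was spelled GGGTCA, again on the strand of the gene and on its opposite. The last of the variants was spelled GGTTCA. Each window runs 5′ to 3′ on the strand of the gene from 250 bases before a transcript start to 50 bases after it.
Nrip1 window 1, chr16:76373778-76374077, minus strand: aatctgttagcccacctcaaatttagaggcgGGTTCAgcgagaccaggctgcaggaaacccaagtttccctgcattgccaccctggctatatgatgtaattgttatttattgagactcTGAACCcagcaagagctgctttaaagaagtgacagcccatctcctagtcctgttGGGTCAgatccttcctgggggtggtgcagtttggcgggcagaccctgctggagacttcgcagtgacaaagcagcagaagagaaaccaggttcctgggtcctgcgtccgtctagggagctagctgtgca
Nrip1 window 2, chr16:76373000-76373299, minus strand: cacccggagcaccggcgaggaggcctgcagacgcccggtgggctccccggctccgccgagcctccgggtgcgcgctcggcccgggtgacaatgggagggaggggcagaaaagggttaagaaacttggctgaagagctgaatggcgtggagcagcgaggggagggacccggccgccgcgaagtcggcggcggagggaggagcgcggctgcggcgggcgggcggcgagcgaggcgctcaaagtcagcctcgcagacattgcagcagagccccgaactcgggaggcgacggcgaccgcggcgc
Window 1, at the outermost start, held 3 half-sites. Counted from the start, the variant GGTTCA lay at positions -219 to -214 on the strand of the gene, and again at -132 to -127 on the opposite strand. Nearest to the start, at -78 to -73, lay the variant GGGTCA on the strand of the gene. The consensus AGGTCA was in neither window and in 16.3% of all windows. Window 2 held none of these spellings. Its GC content was 73.3% with 40 CpG dinucleotides, window 1 had 52.7% and 6, and the medians over all windows were 52.7% and 7. A half-site is common: 43.7% of the 32851 mouse promoter windows hold at least 1. Neither Nrip1 window held 2 half-sites in tandem with 1, 2 or 5 bases between them, arrangements found in 0.222%, 0.268% and 0.0974% of all windows. The absence concerns these letters in these windows only. Where on the transcript each probe set lies is not given in the sources used here; 1449089_at and 1418469_at are both annotated from NM_173440, 1432603_at and 1454295_at both from the sequence tag BB041915, 1434384_at from BB764550 and 1447211_at from BE956701.

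The values are linear signals in the authors' units. Array medians lay between 71.2 and 76.1 units, and the median of all values, 73.5 units, served as the level below which a signal is called dim. The AML12 label was checked against hepatocyte markers: albumin (Alb) averaged 9724 units with RA and 10203 without, and transthyretin (Ttr) 10765 and 10775. These were the brightest of the 9 hepatocyte markers measured and lay near the array maxima of 11572 to 12275 units. Both make up a large part of the hepatocyte sums given below. Whether signals this high could still show a change was not tested. The dimmest, Apoa2, averaged 106 units with RA and 158 without, with single arrays down to 43.6 units. Apoa1 ran from 200 to 7093 units on untreated arrays. Of 11 measured markers of macrophages, leukocytes, endothelium, fibroblasts and adipocytes, 7 were too dim to be tested, and the brightest of the other 4, Csf1r and Col1a2, averaged 138 and 127 units with RA against 147 and 150 without. None of the 11 was at 0, and their sum ran from 429 to 753 units with RA and from 454 to 709 units without. Of 9 hepatocyte markers 0 rose and 1 fell with RA, Hnf4a at -0.27 (limma adjusted p = 0.0409), against 0.841% higher and 0.366% lower among 12015 genes taken with 1 probe set each, and with sums of 28217 to 32308 units with RA and 27556 to 42983 units without. For 3 of the 4 arrays titled 24 h the description names 3 h; the titles were followed.

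In both lines and at both times, Nrip1 signal was higher with RA on 4 of the 6 probe sets. The brightest, 1434384_at, read 1142 units at 24 h and 968 units at 3 h in v-erbA cells with RA, against 409 and 264 units without RA. In AML12 cells it read 1014 units at 24 h and 1155 units at 3 h with RA, against 293 and 333 units without RA. All 4 RA arrays lay above all 4 untreated arrays, the lowest RA array being 2.37 times the highest untreated one. The ratio of RA to untreated signal was 2.80 at 24 h and 3.66 at 3 h in v-erbA cells, and 3.47 at both 24 h and 3 h in AML12 cells. On the log2(signal + 19.9) scale the difference averaged 1.67 ± 0.16 (SD, n = 4 pairs of arrays). The signals are relative to each culture's total RNA, so more responding cells and more RNA per cell cannot be told apart.

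A second bright probe set, 1449089_at, gave a like picture. It read 699 units at 24 h and 778 units at 3 h in v-erbA cells with RA, against 301 and 211 units without. In AML12 cells the values were 829 and 933 units with RA at 24 h and 3 h, against 190.3 and 276 units without. The groups did not overlap, and the ratios ran from 2.32 in v-erbA cells at 24 h to 4.36 in AML12 cells at 24 h. The log2 difference averaged 1.66 ± 0.36 (SD, n = 4 pairs).

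The dimmer 1447211_at was above the dim level with RA only. It read 177 and 166 units in RA-treated v-erbA cells at 24 h and 3 h, against 69.6 and 45.6 units untreated. RA-treated AML12 cells gave 185 and 203 units at 24 h and 3 h, against 36.6 and 42.5 units untreated. All 4 untreated arrays were dim, so the fold is a bound. The mean with RA was 2.48 times the dim level, hence at least 2.48-fold higher than untreated. Single pairs were at least 2.26-fold to 2.76-fold higher. As measured, the log2 difference averaged 1.58 ± 0.34 (SD, n = 4 pairs). This probe set entered the tests only through its RA arrays.

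The probe set 1418469_at, annotated from the same accession as 1449089_at had a smaller ratio at 24 h than at 3 h in both lines. It read 307 units at 24 h and 259.9 units at 3 h in v-erbA cells with RA, against 168 and 71.2 units without. AML12 cells with RA had 287 units at 24 h and 304 units at 3 h, against 209 and 98.1 units without. The RA arrays lay close together, while the untreated signal was at least 2.29-fold higher at 24 h than at 3 h in v-erbA cells, where the 3 h array was dim, and 2.13 times as high in AML12 cells. The ratio of RA to untreated signal was 1.83 at 24 h in v-erbA cells and 1.37 at 24 h in AML12 cells; at 3 h it was at least 3.54 in v-erbA cells, whose untreated array was dim, and 3.11 in AML12 cells. The log2 difference averaged 1.07 ± 0.56 (SD, n = 4 pairs), and all 4 RA arrays lay above all 4 untreated ones, the lowest being 1.24 times the highest untreated array.

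**Figure D1:**
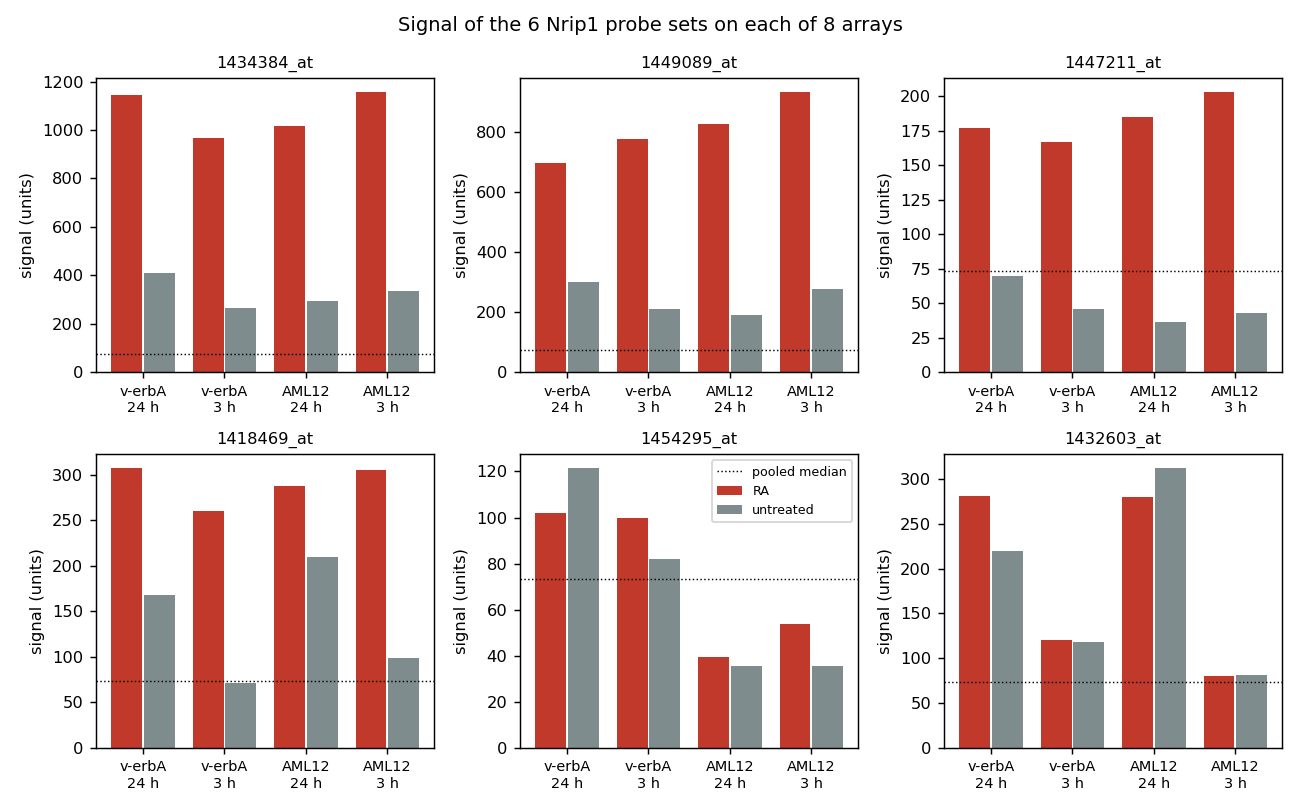
Signal in units (y axis, linear from 0) of each Nrip1 probe set on each array, with RA (red) left of untreated (grey) for every line and time (x axis); the dotted line is the pooled median of 73.5 units and each bar is 1 array. Bars with RA stand above untreated bars for 1434384_at, 1449089_at, 1447211_at and 1418469_at, whereas 1432603_at follows time and 1454295_at follows line.

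The remaining pair, both annotated from the sequence tag BB041915, showed no like response. For 1432603_at the signal was 281 and 121 units in v-erbA cells with RA at 24 h and 3 h, against 219.9 and 118 units without. In AML12 cells it was 280.3 and 80.2 units with RA at 24 h and 3 h, against 312 and 81.4 units without. The RA and untreated arrays overlapped throughout, while every 24 h array exceeded every 3 h array. Its RA difference averaged 0.05 ± 0.20 on the log2 scale and was above 0 in 2 of 4 pairs.

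The dimmest, 1454295_at, read 102 and 99.7 units in v-erbA cells with RA at 24 h and 3 h, against 121 and 82.2 units without. All 4 AML12 arrays were dim, at 39.2 and 53.9 units with RA at 24 h and 3 h, against 35.6 and 35.6 units without. Here the lines separated and the treatments did not. The RA difference averaged 0.13 ± 0.26 (SD, n = 4 pairs) and was above 0 in 3 of 4 pairs.

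Differences of this size with RA were rare over the whole array, which describes the contrast that chose the gene. At 3 h, 4 of the 6 probe sets were at least 2-fold higher with RA in each line, against 0.0734% of bright enough probe sets in v-erbA cells and 0.268% in AML12 cells. At 24 h there were 3 in each line, against 0.169% in v-erbA cells and 0.835% in AML12 cells. Groups without overlap, with RA on top, occurred in 4 of the 6 and in 0.621% of all 24955 probe sets tested. In the additive fit 1.15% of all probe sets passed for RA in either direction (limma). In all 4 pairs at once, 6 probe sets (0.024%) reached 2-fold, of which 3 belong to Nrip1: 1434384_at, 1447211_at and 1449089_at. The other 3, named here after their values were seen, were 1 each of Nr0b2, whose product is a corepressor-like nuclear receptor of bile acid metabolism, Fmo5, a flavin monooxygenase, and Gprc5b, an orphan receptor of a retinoic acid-inducible family. Their lowest ratios were 2.12 for Fmo5 and 2.14 for Gprc5b. For Nr0b2 both untreated v-erbA arrays were dim, so its ratios there are bounds, at least 2.02-fold at 24 h and at least 1.89-fold at 3 h, and it is counted among the 6 by its measured signal only.

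**Figure D2:**
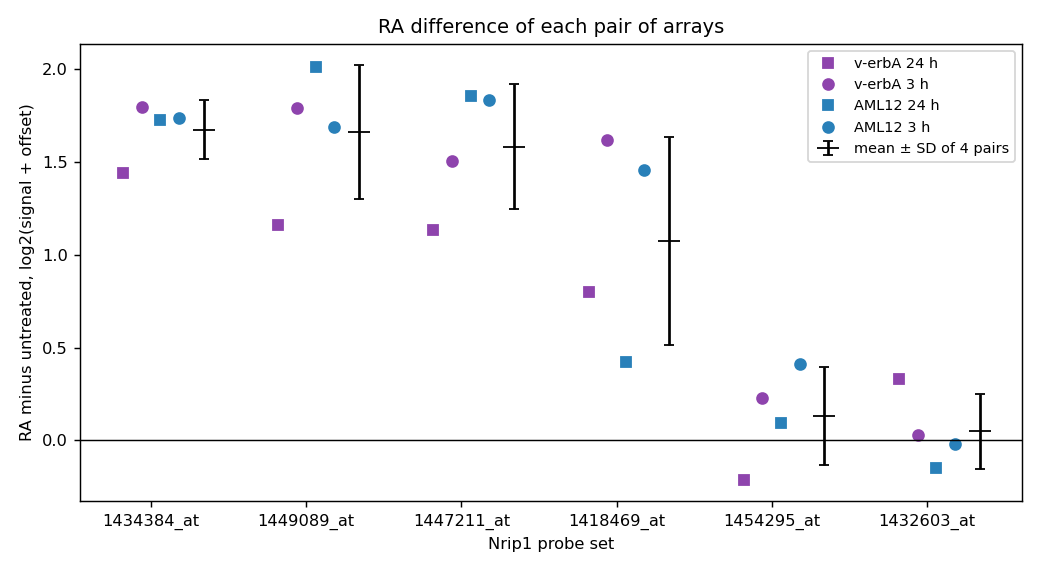
Difference between the RA array and the untreated array on the log2(signal + offset) scale (y axis) for each Nrip1 probe set (x axis); squares are 24 h, circles 3 h, purple v-erbA cells and blue AML12 cells, and the black bar is the mean ± SD of the 4 pairs. From left to right the means are 1.67, 1.66, 1.58, 1.07, 0.13 and 0.05.

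Across the 8 arrays the probe sets fell into 3 patterns. Pearson's r of the log2 signals was 0.985 to 0.988 among 1434384_at, 1449089_at and 1447211_at, and 0.789 to 0.854 between these and 1418469_at. It was -0.07 to 0.05 between the first 3 and 1432603_at, 0.137 to 0.237 between them and 1454295_at, and 0.057 between 1432603_at and 1454295_at although both carry the same accession. These r values describe 8 arrays that share RNA and labelling, and those among the RA-responding probe sets mostly restate the RA difference. Among untreated arrays, v-erbA cells at 24 h were the highest on 1434384_at and 1449089_at, at 409 and 301 units. The lowest untreated array was that of v-erbA cells at 3 h on 1434384_at and that of AML12 cells at 24 h on 1449089_at. The untreated arrays of 1447211_at were all dim and have no order.

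**Figure D3:**
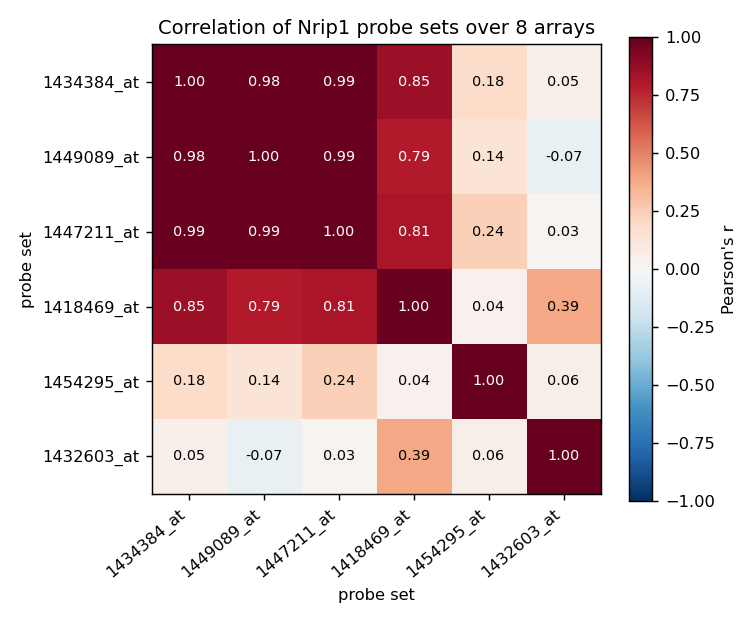
Pearson's r of log2(signal + offset) over 8 arrays between each pair of Nrip1 probe sets (both axes; colour from -1 in blue to 1 in red, value in each cell). The first 3 probe sets correlate at 0.985 to 0.988, 1418469_at at 0.789 to 0.854 with them, and 1432603_at and 1454295_at stand apart.

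The order of levels on 1434384_at, from high to low, was AML12 with RA at 3 h, v-erbA with RA at 24 h, AML12 with RA at 24 h, v-erbA with RA at 3 h, then untreated v-erbA at 24 h, AML12 at 3 h, AML12 at 24 h and v-erbA at 3 h. With 1 array per condition no spread is known for any level, so neighbours in this order cannot be told apart by a test. Treatment alone split the order into its upper and lower part.

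Whether Nrip1 differed with v-erbA was tested over both treatments and times, a contrast that did not choose the gene. On the 4 RA-responding probe sets no difference passed. For 1434384_at the mean log2 signal was 9.26 in v-erbA cells and 9.24 in AML12 cells, a difference of 0.01 ± 0.11 (SE; 95% interval -0.24 to 0.27; limma adjusted p = 0.928), and its sign turned to -0.02 with arrays centred on their medians. The differences of 1449089_at, 1447211_at and 1418469_at were -0.06, 0.10 and -0.19 (limma adjusted p of 0.735, 0.554 and 0.367). With 1 array left out the estimates ran from -0.12 to 0.12 for 1434384_at, from -0.25 to 0.03 for 1449089_at, from -0.06 to 0.22 for 1447211_at and from -0.38 to -0.03 for 1418469_at, so the first 3 have no settled sign, and that of 1447211_at turned to -0.08 with dim signals set to the dim level. The interval of 1418469_at ran from -0.57 to 0.18. Leaving out 1 array gave 2 calls among these: 1449089_at at -0.25 without the untreated v-erbA array of 24 h (limma adjusted p = 0.0334), and 1418469_at at -0.38 without the AML12 RA array of 24 h (adjusted p = 0.0477). Only 1454295_at of the 6 passed: its difference was 0.99 ± 0.13 (SE; limma adjusted p = 2.33e-04), or at least 1.37-fold higher in v-erbA cells since all AML12 arrays were dim. It was higher in 4 of 4 matched pairs. This probe set entered the test only through its v-erbA arrays; with no filter on dim signals the adjusted p was 1.07e-04. With dim signals set to the dim level the limma difference was 0.37 (adjusted p = 0.00706). Of all probe sets 49.7% passed for the line, and 35.2% had 4 v-erbA arrays on one side of the 4 AML12 arrays. The 6 probe sets read 1 gene on shared RNA, so the count of 1 of 6 cannot be told apart from these shares. Hepatocyte markers differed as well, with 1 of 9 higher and 5 lower in v-erbA cells, against 26.3% and 26.8% of all genes, and sums of 27556 to 32718 units there against 31761 to 42983 units in AML12 cells, and their part in the result was not tested.

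Time was tested in the same model. In 1432603_at the mean log2 signal was 8.19 at 24 h and 6.89 at 3 h, a rise of 1.30 ± 0.14 (SE; limma adjusted p = 7.14e-05) seen in 4 of 4 matched pairs. The 24 h to 3 h ratio was 2.33 with RA and 1.86 untreated in v-erbA cells, and 3.50 with RA and 3.84 untreated in AML12 cells. For 1418469_at the difference was 0.54 ± 0.17 (SE; limma adjusted p = 0.0380), higher in 3 of 4 pairs, and it did not pass without any 1 of the 4 untreated arrays or without the v-erbA RA array of 24 h (limma adjusted p of 0.0633 to 0.129). The other 4 probe sets did not pass: 1434384_at differed by 0.12 (95% interval -0.14 to 0.37; -0.02 to 0.21 with 1 array left out) and 1449089_at by -0.08 (-0.39 to 0.22), which passed at -0.27 without the untreated v-erbA array of 24 h (limma adjusted p = 0.0358). Passing for time was common, at 2 of these 6 and 30.4% of all probe sets, and the 24 h and 3 h arrays did not overlap for 1432603_at of the 6 and for 17.9% of all. Markers of other cells moved with time too: 0 of the 4 tested rose and 3 fell, against 19.1% and 14.8% of all genes, and the 11 measured summed to 429 to 552 units at 24 h and 669 to 753 units at 3 h. Of the 9 hepatocyte markers 4 rose and 1 fell, with sums of 29361 to 42983 units at 24 h and 27556 to 31988 units at 3 h. The part of either list in the result was not tested. The labels give no array processing date, so time in culture and any difference in processing between the 24 h and 3 h arrays cannot be told apart.

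The design asked whether v-erbA alters RA responses. For Nrip1 the interaction was tested on the 6 probe sets and 0 passed. The RA response of 1434384_at was lower in v-erbA cells than in AML12 cells by 0.11 on the log2 scale (-0.11 ± 0.24, SE; 95% interval -0.65 to 0.43; limma adjusted p = 1.00). That of 1449089_at differed by -0.37 (95% interval -0.96 to 0.21), that of 1447211_at by -0.52 (-1.04 to -0.0015) and that of 1418469_at by 0.27 (-0.51 to 1.04). With dim signals set to the dim level, an alternative added after the data were seen, the value of 1447211_at was -0.16. With 1 array left out the estimates ran from -0.43 to 0.21 for 1434384_at, above 0 without the untreated 24 h array of either line or the AML12 RA array of 3 h. They ran from -0.14 to 0.68 for 1418469_at, below 0 without the AML12 array of 24 h of either treatment or the untreated v-erbA array of 3 h. For 1449089_at they ran from -0.75 to -0.00018 and for 1447211_at from -0.78 to -0.27. On 1434384_at and 1449089_at the smallest of the 4 responses was that of v-erbA cells at 24 h. Over all 24955 probe sets 0 passed this limma test (0%), 471 having an unadjusted p under 0.05. With all 2-way interactions in the model 1222 had such a p and 24 passed, so both counts depend on the model terms. There 1447211_at had a limma adjusted p of 0.790. When known differences were simulated, the test with 1 interaction found 41.5% of those of 2-fold and 0% of those of 1.5-fold. The intervals therefore bound the difference better than the missed threshold does. Intervals and simulation both took departure from a model as their spread.

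The response at 24 h was also set against that at 3 h, averaged over lines. For 1418469_at it was lower at 24 h by 0.93 on the log2 scale (-0.93 ± 0.17, SE; 95% interval -1.31 to -0.54; limma adjusted p = 0.311), lower in both lines, which did not pass. For 1434384_at, 1449089_at and 1447211_at the estimates were -0.18, -0.15 and -0.18, with intervals from -0.81 to 0.48 at the widest. Their signs turned to 0.11, 0.30 and 0.20 without the untreated v-erbA array of 24 h, and the values were -0.48, -0.60 and -0.55 without the untreated AML12 array of 24 h. The untreated arrays of 1447211_at were all dim, and with dim signals set to the dim level its estimate was -0.02. On 1449089_at the lines went opposite ways: in v-erbA cells the response was 1.16 at 24 h and 1.79 at 3 h, and in AML12 cells 2.01 at 24 h and 1.69 at 3 h. With all 2-way interactions in the model the value of 1418469_at passed (limma adjusted p = 0.00526), as it did without the v-erbA RA array of 24 h (-1.12, limma adjusted p = 0.0443). Over all probe sets 2 passed this test (0.00801%). With all 2-way interactions 268 passed, in a model with fewer residual degrees of freedom than the 3 of this test. The difference between probe sets in this measure was not tested.

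**Figure D4:**
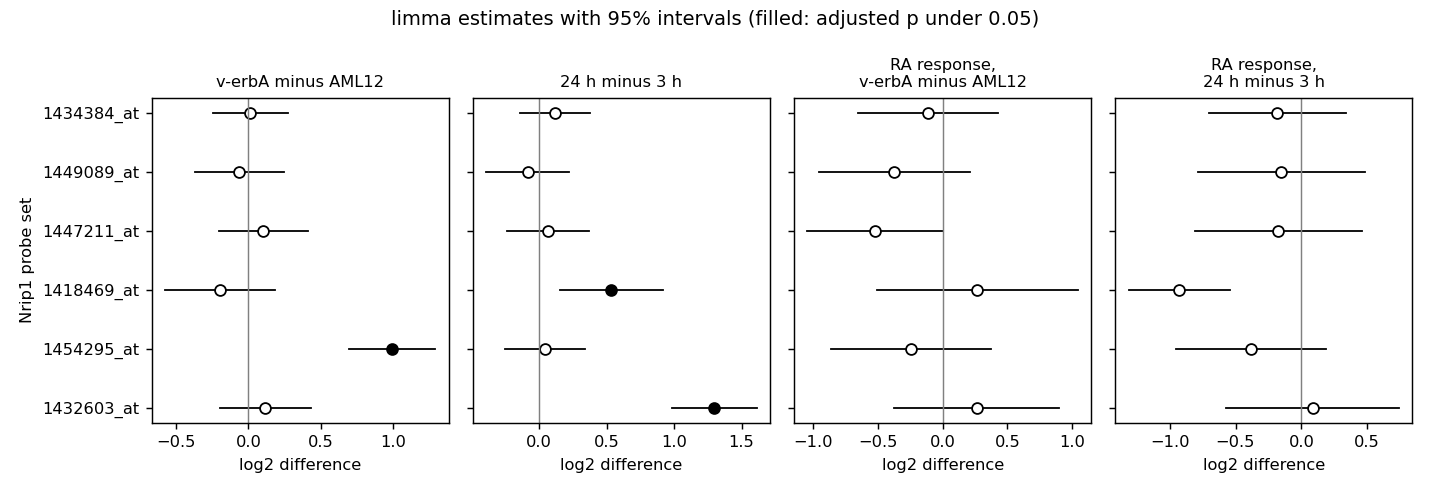
limma estimates on the log2 scale (x axes) with 95% intervals for each Nrip1 probe set (y axis) in 4 contrasts: v-erbA minus AML12, 24 h minus 3 h, and the RA response between lines and between times; filled points have an adjusted p under 0.05. Only 1454295_at is filled for line, 1418469_at and 1432603_at for time, and none for the RA responses.

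The genes whose profile over the 8 arrays was most like that of 1434384_at were found among 4081 genes that varied by an SD of at least 0.25. Of these 9 had a Pearson's r of at least 0.9, and the median r was 0.0050. The 8 closest were Synpo, an actin-binding protein (0.976), Epn2, the endocytic adaptor epsin 2 (0.964), Pitpnc1, a phosphatidylinositol transfer protein (0.963), Gse1 (0.954), the deubiquitinase gene Usp43 (0.930), the galactosyltransferase gene B4galt5 (0.924), Gprc5b (0.919) and the mannosidase gene Man1a2 (0.914). Their RA differences ran from 0.44 in Man1a2 to 1.12 in Gprc5b, all smaller than the 1.67 of 1434384_at, the widest Nrip1 probe set at this offset. With an offset of 1, 1447211_at, dim when untreated, was wider at 1.93, against 1.73 for 1434384_at. Synpo had 233 to 305 units with RA against 127 to 173 units without, and Epn2 had 490.3 to 653 units against 268 to 351 units, neither with overlap. Groups without overlap, with RA on top, occurred in 0.621% of all 24955 probe sets tested. The genes were picked for likeness to a profile chosen for its RA difference. Their higher signal with RA therefore follows from the choice and mostly restates that difference. The likeness depended on the probe set in some: second probe sets of Epn2 gave r of 0.974 and 0.947 but another gave 0.680. Tested probe sets of Pitpnc1 went down to 0.426 and 0.097, and one of Man1a2 went the other way, with r of -0.179 and an RA difference of -0.26.

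The tested genes nearest to Nrip1 on chromosome 16 did not pass for RA. The nearest with a tested probe set were Hspa13, a heat shock 70 family gene 520.1 kb away on the side of lower coordinates, and Usp25, a deubiquitinase gene 639.9 kb away on the other side. Hspa13 averaged 848 units with RA and 799 units without (0.08, limma adjusted p = 0.620), and Usp25 504 and 506 units (-0.0036, adjusted p = 0.990). The next 2 on each side, 4930500H12Rik and Gbe1, which encodes the glycogen branching enzyme, and Mir99ahg and Cxadr, a cell junction receptor gene, differed by 0.04, -0.02, -0.25 and -0.06 (limma adjusted p of 0.282 to 0.9754). In that order these lie 2877, 5718, 956 and 1927 kb from Nrip1. So 0 of 6 passed, against 1.21% of 12015 genes, a share at which 0 of 6 tells nothing particular about this region.

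**Figure D5:**
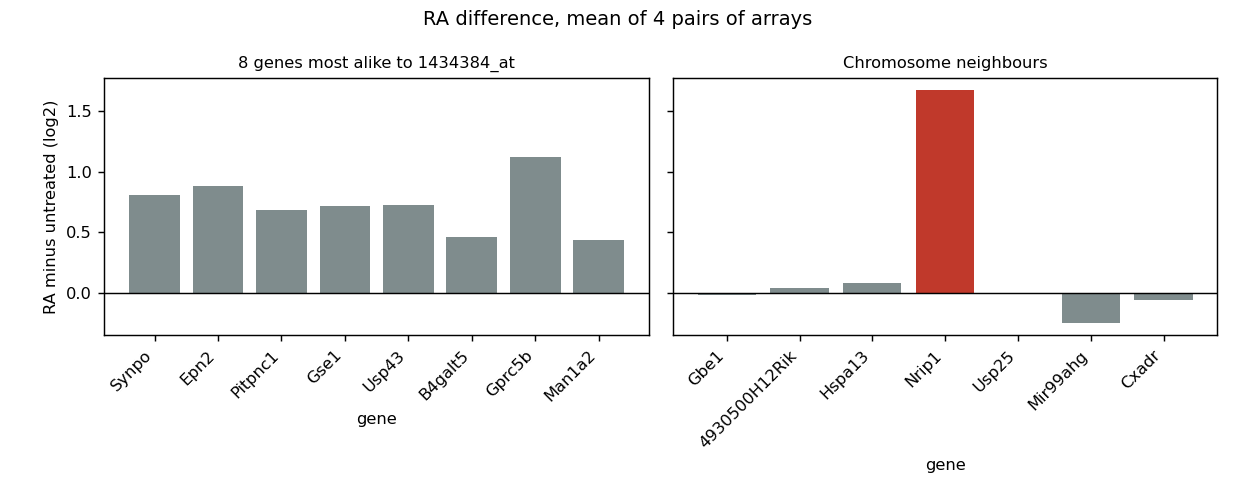
RA minus untreated on the log2 scale (y axis, mean of 4 pairs of arrays) for the 8 genes with the highest r to 1434384_at (left) and for Nrip1 (red, 1434384_at) among its nearest tested neighbours in chromosome order (right). The alike genes lie between 0.44 and 1.12, and the neighbours between -0.25 and 0.08.

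Genes that work with Nrip1 were counted in the same fits, 1 probe set per gene, where 0.841% of 12015 genes were higher and 0.366% lower with RA and the median difference was 0.00. Its corepressor partners, among them CtBP, histone deacetylase and DNA methyltransferase genes, had 0 of 9 higher and 0 lower, with a median of 0.04. The widest values were those of the methyltransferase genes Dnmt1 (0.15) and Dnmt3a (-0.17). Between lines 3 of these 9 were higher and 3 lower in v-erbA cells, against 26.3% and 26.8% of all genes, the widest being Dnmt3a at 1.08 and the deacetylase gene Hdac5 at 1.02.

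Nuclear receptors that RIP140 is known to bind had 0 of 15 tested higher and 1 lower with RA, with a median of -0.04. Ppara, the receptor that drives fatty acid oxidation, fell to a mean of 491 units with RA, against 955 units without (-0.93, limma adjusted p = 0.00613). Rarb, itself a retinoic acid receptor and an RA target, differed by 0.86 (limma adjusted p = 0.0691). It averaged 68.9 units with RA and 29.4 without, both means below the dim level, so no fold is given. Its highest RA array read 82.7 units and its highest untreated array 45.7 units, so it entered the test only through RA arrays.

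Energy genes that RIP140 is known to repress in fat and muscle had 1 of 7 tested higher and 0 lower, with a median of 0.01. Pdk4, a kinase that restrains glucose oxidation, rose to 257 units with RA, against 165 units without (0.57, limma adjusted p = 0.0187). Ppargc1b, a coactivator of the same programme, differed by -0.49 (adjusted p = 0.137), and the thermogenic genes Ucp1 and Cidea were too dim to be tested. Other ligand-dependent corepressors had 1 of 4 higher, Nr0b2 (2.10 as measured, limma adjusted p = 9.88e-04), and 0 lower. With 2 of its 4 untreated arrays dim, that difference was 1.63 when dim signals were set to the dim level. The remaining 3, Lcor, Lcorl and Tnip1, differed by 0.17, -0.13 and 0.07.

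Of 11 other retinoid-induced genes tested, 4 were higher and 0 lower, with a median of 0.34. They were Dhrs3, a retinaldehyde reductase gene (0.67), Bcl2, an inhibitor of apoptosis (0.58), the transcription factor gene Sox9 (0.55) and Rdh10, a retinol dehydrogenase gene (0.42), with limma adjusted p of 0.00613 to 0.0202. The widest difference of this list was that of Rarb, also among the receptors above, at 0.86, which did not pass (limma adjusted p = 0.0691). At the other end Gprc5a, an orphan receptor gene, differed by -0.26 (limma adjusted p = 0.396). All 11 differences were below the 1.67 of 1434384_at, the widest Nrip1 probe set at this offset, in a gene chosen for this difference. The Nrip1 probe sets 1454295_at and 1432603_at, at 0.13 and 0.05, lay within the range of the list. Over the 5 lists 7 genes passed for RA, but 4 did without the AML12 RA array of 3 h and 1 did without the trend of variance on mean. The list was drawn up with earlier RA results of these data known, so its count is no independent evidence of direction.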

How the data were processed

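Each of 8 cultures gave total RNA, labelled with biotin per the labels and read on 1 Affymetrix array. The authors deposited the values as linear intensity, 1 signal for every probe set. Their summarization and scaling are not given in any source used here, and precision is limited by the number of arrays. Of 45037 probe sets, 1 lacked values and was left out. The platform annotation named 1 gene for 34944, several for 932 and none for 9160. Members and lists were chosen with earlier results of these data known.

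Signals became log2(signal + 19.9), the offset being the 20th percentile of all values. Probe sets with at least 2 of 8 arrays above the pooled median were tested, 24955 in all, and all 6 of Nrip1 passed. The fits of line, treatment and time used limma (version 3.58.1, R 4.3.3) with 4 residual degrees of freedom, or 3 with 1 interaction added, a trend of variance on mean, and Benjamini-Hochberg adjustment over all tested (threshold 0.05). The spread is departure from the model, since no combination was repeated, and it may be technical. In lists the probe set of highest mean stood for its gene. Named genes were the 8 of highest r, the 3 nearest neighbours per side and, per list, those past the RA threshold or with the widest values, up to 4. Line differences of 2-fold were recovered at 96%, and those of 1.5-fold at 62.5%, when tested on simulated data. There 200 of 24955 probe sets were changed, while 49.7% passed for line in the real data. The 2 settings differ in this, so these shares do not give the recovery of the real line test. Promoters are RefSeq's, GRCm38.p6. Alternatives changed the offset, scaling, filter, trend, model terms and arrays left out.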

Additional observations from a re-analysis of the deposited data

Results flagged for a closer look

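For 1432603_at both RA differences were above 0 in v-erbA cells and both below 0 in AML12 cells, with means of 0.179 and -0.0819 on the log2 scale. Both means are smaller than the SD of 0.20 over the 4 pairs, and the limma test of the difference gave 0.26 ± 0.28 (SE, adjusted p = 1.00).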

How the results depend on the processing

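On 1434384_at the calls for line, time and both differences of RA responses kept their side of the threshold under every alternative run. Its RA difference in v-erbA cells at 3 h moved to 1.62 with the offset at the pooled median, in place of 1.80, and its mean over pairs ran from 1.53 to 1.73 over the offsets and scalings. The mean of 1447211_at was 1.93 with an offset of 1 and 1.07 with the pooled median, in place of 1.58. For 1418469_at the time call was also lost with quantile normalization, without the mean-variance trend and with dim signals set to the dim level (limma adjusted p of 0.0581, 0.0818 and 0.0589). Genes of the 5 lists past the threshold for RA numbered 7, but 1 without the trend, 16 with all 2-way interactions and 4 to 8 with 1 array left out (4 without the AML12 RA array of 3 h). Over all probe sets the RA calls were 286 (141 of 12015 genes when 1 probe set per gene was fitted), against 25 without the trend, 1481 with all 2-way interactions, 175 with dim signals set to the dim level and 62 to 286 with 1 array left out; the interaction with line gave 24 and that with time 268 under all 2-way interactions, in place of 0 and 2, and up to 8 and 98 with 1 array left out; under the other settings those with time numbered 0 to 3. With arrays centred on their medians RA gave 233 higher and 94 lower in place of 167 and 119, and time 3280 higher and 4229 lower in place of 4140 and 3440; quantile normalization gave 3616 and 3928 for time. The labels carry no replicate numbers, and the pairs of arrays in the text are matched by line and time. No fit with these pairs alone as blocks was run. The main model holds line and time as terms but not their interaction, which the model with all 2-way interactions adds. Dim signals limit 1447211_at and 1454295_at. The causes of these shifts were not tested.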
